A study of Drosophila melanogaster with 28 samples.

Results

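The genes described here are those of Drosophila melanogaster that encode subunits of the 26S proteasome, together with the extra copies of subunit genes that are used mainly in the testis. Members were chosen by symbol: names beginning with Prosalpha, Prosbeta, Rpn or Rpt and a digit, and Sem1. Of 16864 genes in the count table, 49 met this rule, namely 33 subunit genes and 16 genes whose symbol ends in R or T, with or without a further digit, which are called testis paralogs. The study profiled chromatin of embryos by ChIP-seq in 28 samples that fall into 14 groups of 2. The 4 samples used here are ChIP-seq libraries of Rpb3, a core subunit of RNA polymerase II (Pol II), from stage 5 embryos, the stage at which the zygotic genome is broadly switched on. DomKD embryos (genotype t216) were laid by mothers that expressed, in the germline under the mat-alpha-Gal4 driver, a short hairpin RNA against domino. Ctrl embryos (genotype t180) are the controls of that experiment, for which the methods list a TRiP control line. There were 2 libraries in each group. Domino is the ATPase of the SWR1-type remodeler that places the histone variant H2A.Z in nucleosomes. The driver acts in the germline of the mother, so the model lowers the maternal supply, and what the embryos' own domino gene added by stage 5 was not measured here.

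The proteasome degrades proteins that carry ubiquitin chains. Its barrel-shaped 20S core has outer rings of alpha subunits, which gate the entrance, and inner rings of beta subunits, of which Prosbeta1, Prosbeta2 and Prosbeta5 hold the proteolytic sites. The 19S cap sits on the barrel: its base has a ring of ATPases (Rpt1 to Rpt6) that unfold substrates and non-ATPase subunits that bind ubiquitin or act as scaffolds, and its lid holds Rpn11, which cuts the ubiquitin chain off. Nearly every cell needs these genes, and the egg is supplied with their products by the mother. In Drosophila, several subunits have a second gene that is expressed in the male germline, where alternative proteasomes form during sperm development.

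Pol II was measured as reads over the whole annotated span of 1 transcript per gene, the one with the highest mean count. Levels are given as density, the unscaled CPM (counts scaled to a common library total) per kb of span, divided by the background density of the same library. A gene is called occupied from 2 times the mean background of 5.08 CPM per kb. Comparisons use CPM after scaling by trimmed means (TMM), and a log2 fold change sets DomKD over Ctrl. Every adjusted p is from edgeR's likelihood ratio test with Benjamini-Hochberg adjustment over the 16513 genes tested, at a threshold of 0.05. Each gene was counted once, and the 4 libraries then held 10415020 and 9245038 reads in DomKD replicates 1 and 2 and 12022739 and 8326465 in Ctrl replicates 1 and 2. The background, as CPM per kb, stood at 4.41 and 7.04 in DomKD, against 4.64 and 4.23 in Ctrl, so DomKD replicate 2 stood apart. The DomKD libraries also differed more from each other (median absolute log2 difference 0.318 over genes) than the Ctrl libraries did (0.131). In all, 2091 genes were lower and 406 higher in DomKD, so 83.7% of calls were lower, against 94.5% with library size scaling and 99.8% with TMM factors from the early zygotic list, while a fit of occupied genes alone gave 1191 lower and 1288 higher. At dom itself, Pol II gave 599.5 and 371.4 CPM in DomKD, against 617.3 and 663.6 in Ctrl (log2 fold change -0.40, adjusted p = 0.267). This is no check of the knockdown, which acts on the maternal RNA. The stage was checked against a list of early zygotic patterning genes, of which 52 of the 58 found were occupied, while 5 of 29 testis genes were. Over all genes tested, 5961 of 16513 were occupied. The level of the early zygotic genes had a median of 15.5 and 7.63 times background in DomKD, against 11.2 and 12.3 in Ctrl.

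The sequences before the start were searched for motifs. The DRE, the site of the factor DREF, is common at housekeeping promoters of Drosophila. The windows from 250 bases before to 50 after the annotated start were searched on both strands for the DRE (TATCGATA), the TATA box (TATAAA), the Zelda site TAGteam (CAGGTAG) and the antioxidant response element ARE (TGACNNNGC), the kind of site bound by the cap'n'collar factor encoded by cnc. Each motif was counted on its own, whether or not it overlapped another. A DRE was found at 12 of the 33 subunit genes (36.4%) and at 0 of the 16 paralogs, against 7.88% of all 16821 windows and 14.1% of those of occupied genes. An ARE was found at 6 subunit genes (18.2%) and 1 paralog (6.25%), against 8.47% of all windows. TATA boxes stood at 42.4% of subunit genes, 31.2% of paralogs and 44.6% of all genes, and the TAGteam at 1 subunit gene (Rpt6) and 1 paralog (Prosbeta2R2).

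The promoters below are examples from subunit genes, picked when their changes, which are described next, were known. Sem1 (chr2L:7063736-7064015, plus strand) and Prosbeta3 (chr3R:9006197-9006470, minus strand) were among the 3 subunit genes with the lowest fold change, and hold an ARE and no DRE. Of the other subunit genes with an ARE, which are not shown, Prosalpha2 and Rpn7 were lower and Rpn1 and Rpt6 did not pass. Prosbeta6 (chr3L:16610389-16610668, minus strand) and Rpt5 (chr3R:23752820-23752905, plus strand) hold a DRE and were lower in DomKD, near the median of the subunit genes. Prosalpha6 (chr2L:10221202-10221380, plus strand) and Prosbeta2 (chr3L:14999701-14999980, plus strand) hold a DRE and did not pass the test. Sequences are from the RefSeq Release 6 genome (dm6), end 30 bases after the start, and are shortened where another gene's exon lies upstream. Capitals mark the DRE or the ARE, and in Prosbeta3 they mark 2 AREs that overlap on opposite strands.
Sem1: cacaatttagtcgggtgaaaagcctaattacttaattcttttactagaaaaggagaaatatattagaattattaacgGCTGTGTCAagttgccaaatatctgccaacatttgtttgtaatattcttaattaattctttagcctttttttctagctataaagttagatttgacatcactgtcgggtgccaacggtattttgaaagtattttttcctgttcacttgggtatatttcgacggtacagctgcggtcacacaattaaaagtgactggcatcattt
Prosbeta3: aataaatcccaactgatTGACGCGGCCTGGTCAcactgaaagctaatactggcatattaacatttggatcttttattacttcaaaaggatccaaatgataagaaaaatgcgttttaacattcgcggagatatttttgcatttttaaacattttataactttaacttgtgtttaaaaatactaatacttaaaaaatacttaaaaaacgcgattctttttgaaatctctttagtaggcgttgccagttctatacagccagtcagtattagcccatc
Prosbeta6: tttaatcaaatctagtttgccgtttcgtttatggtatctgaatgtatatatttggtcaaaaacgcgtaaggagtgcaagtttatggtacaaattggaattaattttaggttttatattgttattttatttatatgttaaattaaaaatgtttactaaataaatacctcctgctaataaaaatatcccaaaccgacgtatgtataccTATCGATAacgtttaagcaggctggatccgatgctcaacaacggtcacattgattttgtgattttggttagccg
Rpt5: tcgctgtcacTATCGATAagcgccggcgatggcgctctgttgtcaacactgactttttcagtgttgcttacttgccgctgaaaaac
Prosalpha6: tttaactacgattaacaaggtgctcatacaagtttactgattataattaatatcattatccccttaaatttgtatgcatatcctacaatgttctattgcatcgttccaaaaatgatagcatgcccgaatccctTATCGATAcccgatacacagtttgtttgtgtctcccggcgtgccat
Prosbeta2: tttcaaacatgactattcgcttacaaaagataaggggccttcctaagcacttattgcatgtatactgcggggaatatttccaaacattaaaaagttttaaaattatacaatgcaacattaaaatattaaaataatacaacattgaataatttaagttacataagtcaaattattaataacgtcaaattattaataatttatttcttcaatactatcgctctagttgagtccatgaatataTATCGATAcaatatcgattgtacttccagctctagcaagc

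Nearly all subunit genes carried Pol II at stage 5. Of the 33, 31 were occupied, where 5961 of the 16513 genes tested were. The median level was 3.94 and 2.25 times background in DomKD, against 6.04 and 6.67 times in Ctrl. All 32 with reads stood above the background of each library, as did 9324 of the 16513 genes tested and 5921 of the 5961 occupied genes. The highest mean densities were those of Prosalpha6, an alpha ring subunit (13.9 and 7.26 times background in DomKD, against 13.5 and 15.0 in Ctrl), Rpn1, a base scaffold that receives ubiquitin carriers (10.4 and 4.97 in DomKD, against 11.4 and 13.4 in Ctrl), and Rpn9 of the lid (10.2 and 5.26 in DomKD, against 9.79 and 10.9 in Ctrl). At these 3 genes DomKD replicate 1 was near the Ctrl libraries and DomKD replicate 2 was the lowest. This scale divides DomKD replicate 2 by the highest background, which widens its fall. Before the division, Prosalpha6 had 61.1 and 51.1 CPM per kb in DomKD, against 62.8 and 63.5 in Ctrl. The lowest was Rpt1, an ATPase of the base, with 1.16 and 1.44 times background in DomKD, against 2.01 and 2.76 in Ctrl, which left its mean of 1.78 under the limit for occupied. The whole span of Rpt1 lies within CG17985 on the same strand, so its reads can be shared. Prosalpha4 (1.72 and 1.12 in DomKD, against 3.14 and 2.91 in Ctrl) and Rpn5 (1.44 and 1.26 in DomKD, against 2.85 and 3.56 in Ctrl) came next. At all 3 of these weakly covered genes, both DomKD libraries were below both Ctrl libraries on this scale.

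**Figure D1:**
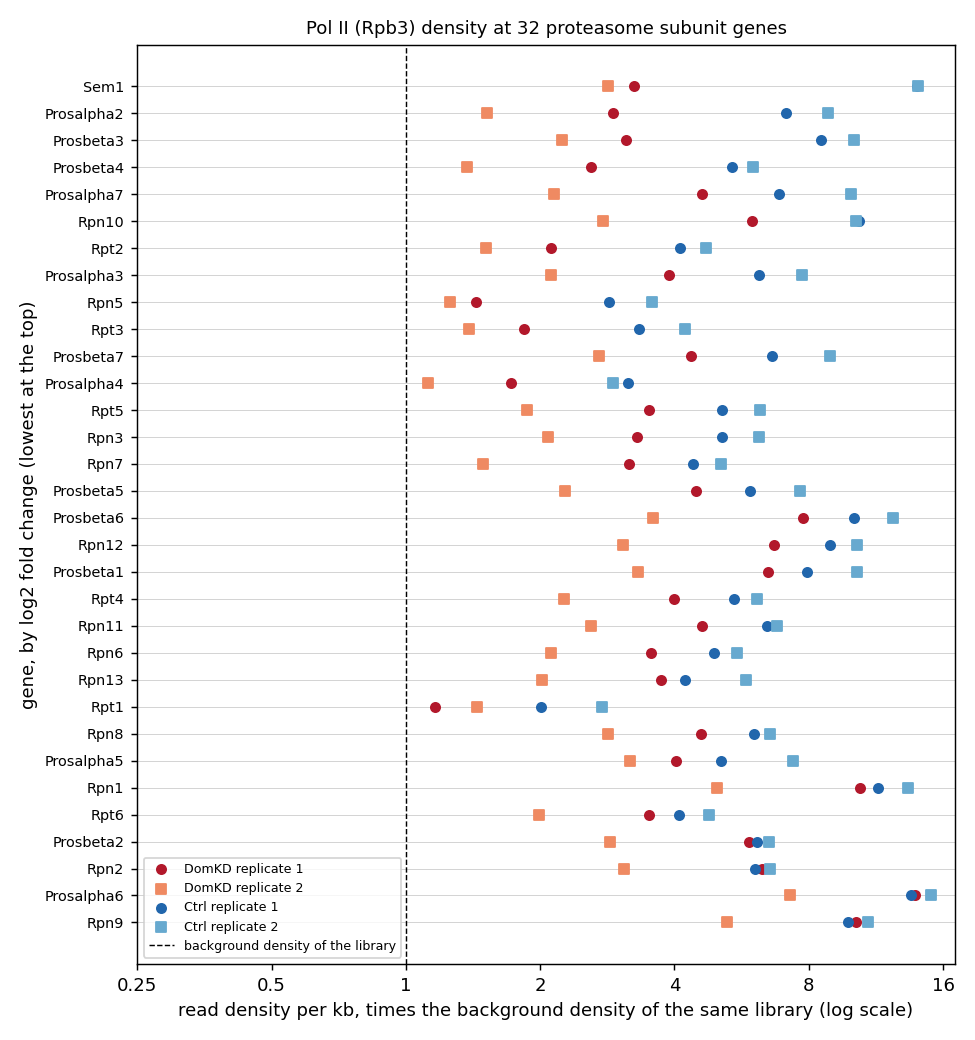
Read density of Rpb3 at the 32 subunit genes with reads, in times the background density of the same library (log scale), with 1 point for each of the 4 libraries and genes ordered by log2 fold change. The 2 DomKD libraries lie left of both Ctrl libraries at the genes near the top, and at the bottom, as at Rpn9 and Prosalpha6, DomKD replicate 1 falls among or beside the Ctrl points.

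Prosalpha1 could not be measured. This alpha ring gene and its paralog Prosalpha1R, which lies near it on chromosome 2R (7827303 to 7828678 and 7830413 to 7831771, dm6), had 0 reads in all 4 libraries. Their encoded proteins of 244 residues were 100% identical, and the spans shared an identical run of 1359 nt. The authors counted only reads of a minimum mapping quality, a step that can leave out reads matching both copies equally well. The reads were not mapped again here, so whether this accounts for every missing read was not tested. The neighbouring gene phr, encoded on the other strand, had 129 and 110 reads in DomKD, against 357 and 238 in Ctrl, while CG18853, which lies between the copies, had 16 and 4 reads in DomKD, against 20 and 14 in Ctrl. No limit on Pol II was taken from the 0 counts of this pair, and the pair was left out of every comparison, which leaves 32 subunit genes and 15 paralogs.

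Subunit genes held a smaller share of the Rpb3 reads in DomKD than in Ctrl embryos. Counts were scaled between the libraries and no input was subtracted, so an absolute loss of Pol II was not measured. Of the 32 tested, 19 were lower (59.4%), 0 were higher and 13 did not pass, where 12.7% of all genes tested, 30.6% of occupied genes and 31.0% of the 6237 genes within the density range of the subunit genes were lower. Of occupied genes, 0.939% were higher. The libraries are from whole embryos, so fewer nuclei with Pol II at a gene and less Pol II in each nucleus cannot be told apart. Without adjustment, 24 of the 32 had a p under 0.05, as did 31.0% of all genes, 49.2% of occupied genes and 50.1% of genes in that density range. The fitted log2 fold change was below 0 at all 32, as at 78.4% of occupied genes, with a median of -0.68 and a range of -1.84 to -0.10. The median was 0.07 over all genes, -0.40 over occupied genes and -0.41 over genes in the density range. Over genes that are not occupied it was 0.26, and 73.5% of those were above 0. Both DomKD libraries were below both Ctrl libraries at 27 of the 32, which held for 31.8% of all genes, 62.1% of occupied genes and 64.9% of genes in the density range. Where groups are said below not to overlap at a gene that passed, the same libraries gave the call, so this adds no support.

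The 2 DomKD libraries did not show the fall to the same degree, and occupied genes at large were unequal in the same direction. Against the mean of the Ctrl libraries, on the log2(CPM + 0.5) scale, the median subunit gene was at -0.42 in DomKD replicate 1 and -0.85 in DomKD replicate 2, while the Ctrl libraries lay within 0.06 of their mean. In DomKD replicate 1, 28 of the 32 genes were below the Ctrl mean, and in DomKD replicate 2 all 32 were. Of occupied genes, 67.2% were below the Ctrl mean in DomKD replicate 1 and 89.5% in DomKD replicate 2, with medians of -0.21 and -0.58. The larger fall was in the library with the higher background, whose part in the result was not tested. With DomKD replicate 2 left out, 24 subunit genes were lower, as were 18.5% of all genes, and the median was -0.43, with 28 of 32 below 0. With DomKD replicate 1 left out, 31 were lower, as were 31.6% of all genes. With Ctrl replicate 1 or 2 left out, 5 or 4 were lower, as were 1.59% or 0.806% of all genes. All 32 values were below 0 also with library size scaling and with TMM factors from the early zygotic list, which moved the median of all genes by -0.25. When occupied genes alone were fitted, 27 of 31 were below 0 and 15 were lower at a median of -0.33, where 1191 of the 5961 genes fitted were lower.

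**Figure D2:**
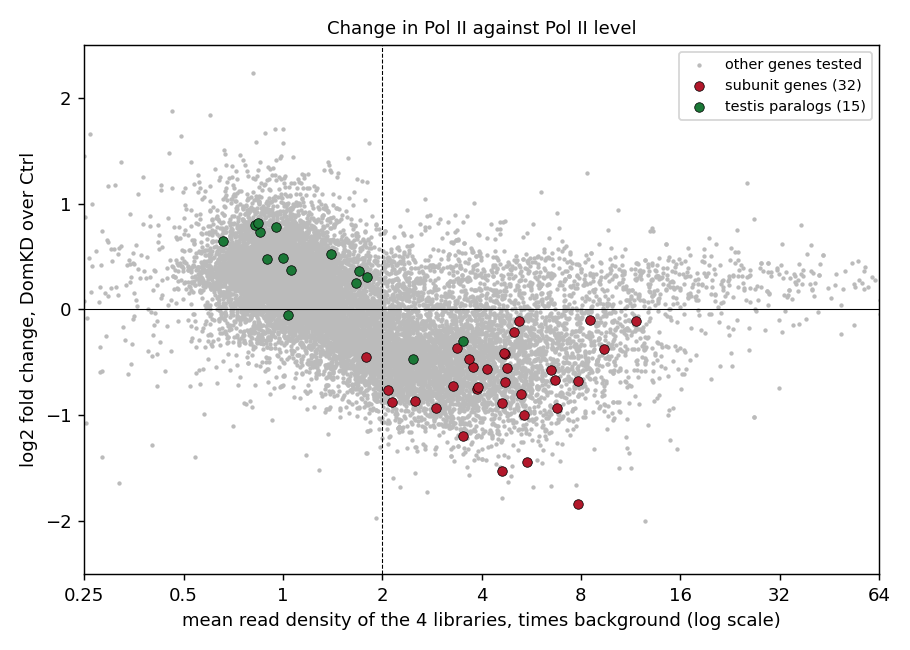
Log2 fold change of Rpb3 (DomKD over Ctrl) against mean read density in times background (log scale). The level and the change come from the same 4 libraries. Grey points are other genes tested, of which 112 lie outside the axes, and the dashed line marks 2 times background. The 32 subunit genes lie between -1.84 and -0.10, and 12 of the 15 testis paralogs lie above 0, near or under background.

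Sem1, the smallest subunit of the lid, showed the lowest log2 fold change. It had 7.73 and 8.85 CPM in DomKD, against 30.7 and 28.5 CPM in Ctrl, or 8.29 ± 0.79 and 29.6 ± 1.56 (SD, n = 2 each). Both DomKD libraries were far below both Ctrl libraries, and the raw counts were 72 and 89 reads in DomKD, against 377 and 239 in Ctrl. The log2 fold change was -1.84 ± 0.21 (SE, adjusted p = 1.56e-13). The span of only 482 nt overlaps Nuf2 by 37 nt on the annotation, so the genes can share reads there. The density of Sem1 was 3.25 and 2.84 times background in DomKD, against 14.0 and 14.1 in Ctrl, so in Ctrl it ranked with the most densely covered subunit genes.

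In the alpha ring, which gates the core, 4 of the 6 genes measured were lower (median -0.82). Prosalpha2 had 17.7 and 12.1 CPM in DomKD, against 40.1 and 45.9 in Ctrl (log2 change -1.53 ± 0.22 SE, adjusted p = 4.29e-09). Prosalpha7 had 27.3 and 16.7 CPM in DomKD, against 37.6 and 50.2 in Ctrl (-0.996, adjusted p = 0.000703). The groups did not overlap at either gene, and the Prosalpha7 libraries spread more within each group. Prosalpha3 had 23.4 and 16.7 CPM in DomKD, against 34.4 and 39.6 in Ctrl (-0.88, adjusted p = 0.000976). Prosalpha4, the weakly covered one, had 11.2 and 9.54 CPM in DomKD, against 18.8 and 16.1 in Ctrl (-0.76, adjusted p = 0.00823). The other members measured did not pass: Prosalpha5 was at -0.42, and Prosalpha6, at -0.11, had 81.7 and 56.2 CPM in DomKD, against 73.6 and 75.4 in Ctrl, with DomKD replicate 1 above both Ctrl libraries.

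In the beta ring, which holds the proteolytic sites, 5 of 7 genes were lower (median -0.68). The structural subunits Prosbeta3 and Prosbeta4 had the lowest values of the ring. Prosbeta3 had 14.1 and 13.2 CPM in DomKD, against 35.4 and 38.8 in Ctrl (-1.44 ± 0.20, SE, adjusted p = 3.55e-09). Prosbeta4 had 12.2 and 8.45 CPM in DomKD, against 23.4 and 24.0 in Ctrl (-1.20 ± 0.22, SE, adjusted p = 8.58e-06). Groups were far apart at both. Prosbeta7 had 29.0 and 23.7 CPM in DomKD, against 40.8 and 50.7 in Ctrl (-0.80, adjusted p = 0.0032). Prosbeta6 had 39.1 and 23.6 CPM in DomKD, against 46.9 and 53.0 in Ctrl (-0.67, adjusted p = 0.0277). Of the 3 catalytic subunits, only Prosbeta5 passed. Prosbeta5, of chymotrypsin-like activity, was lower, with 26.4 and 17.7 CPM in DomKD, against 32.4 and 38.5 in Ctrl (-0.68, adjusted p = 0.0177). Prosbeta1, of caspase-like activity, was at -0.57 (adjusted p = 0.0571). Prosbeta2, of trypsin-like activity, was at -0.22 (adjusted p = 0.488), with 39.7 and 25.4 CPM in DomKD, against 38.1 and 37.5 in Ctrl. No difference in change between these genes was tested.

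Among the ATPases of the 19S base, 4 of 6 were lower (median -0.65). Rpt2 had 17.6 and 16.5 CPM in DomKD, against 31.6 and 33.4 in Ctrl (-0.93, adjusted p = 0.000181), and Rpt3 had 15.2 and 15.1 CPM in DomKD, against 25.5 and 29.8 in Ctrl (-0.86, adjusted p = 0.00072). At both, the DomKD libraries were nearly equal and far below the Ctrl libraries. Rpt5 had 30.2 and 21.2 CPM in DomKD, against 40.7 and 45.7 in Ctrl (-0.75, adjusted p = 0.00701). Rpt4 passed by little, with 34.9 and 25.9 CPM in DomKD, against 44.0 and 45.6 in Ctrl (-0.56, adjusted p = 0.0496), and kept its call in 3 of 10 other ways to process all 4 libraries. Rpt6 (-0.37) and Rpt1 (-0.45) did not pass. Rpt1 had 8.69 and 14.1 CPM in DomKD, against 13.9 and 17.5 in Ctrl, so that its groups overlapped, and it was the only subunit gene whose DomKD replicate 1 was at least 0.3 below DomKD replicate 2.

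Of the 4 other base subunits, 1 was lower (median -0.42). It was Rpn10, a ubiquitin receptor, with 46.6 and 28.3 CPM in DomKD, against 74.6 and 67.9 in Ctrl (-0.93 ± 0.23, SE, adjusted p = 0.00172). Both DomKD libraries were below both Ctrl libraries, and they differed more from each other than the Ctrl libraries did. Rpn13, the other dedicated ubiquitin receptor of the base, was at -0.46 (adjusted p = 0.126). The large scaffold subunits Rpn1 (-0.37) and Rpn2 (-0.11) did not pass. Rpn1 had 160 and 100 CPM in DomKD, against 162 and 175 in Ctrl, and Rpn2 had 116 and 74.5 CPM in DomKD, against 103 and 103 in Ctrl. At both, the low value was that of DomKD replicate 2.

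In the lid, 5 of 9 genes were lower (median -0.66), Sem1 among them. Rpn5 had 14.7 and 16.9 CPM in DomKD, against 27.0 and 31.0 in Ctrl (-0.87, adjusted p = 0.000681). Rpn3 had 30.8 and 25.4 CPM in DomKD, against 44.1 and 49.3 in Ctrl (-0.73, adjusted p = 0.00612). Both genes encode scaffold subunits of the lid, and at both the groups did not overlap. Rpn7, another scaffold subunit, had 21.7 and 13.4 CPM in DomKD, against 27.9 and 29.8 in Ctrl (-0.72, adjusted p = 0.0137). Rpn12 had 32.8 and 19.8 CPM in DomKD, against 40.3 and 42.8 in Ctrl (-0.66, adjusted p = 0.0284). Rpn11, the deubiquitinase, was at -0.55 (adjusted p = 0.0517), its partner Rpn8 at -0.42 and Rpn6 at -0.55, and none of them passed. Rpn9 had 105 and 71.0 CPM in DomKD, against 93.0 and 95.4 in Ctrl (-0.10, adjusted p = 0.776), with DomKD replicate 1 the highest library and DomKD replicate 2 the lowest.

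**Figure D3:**
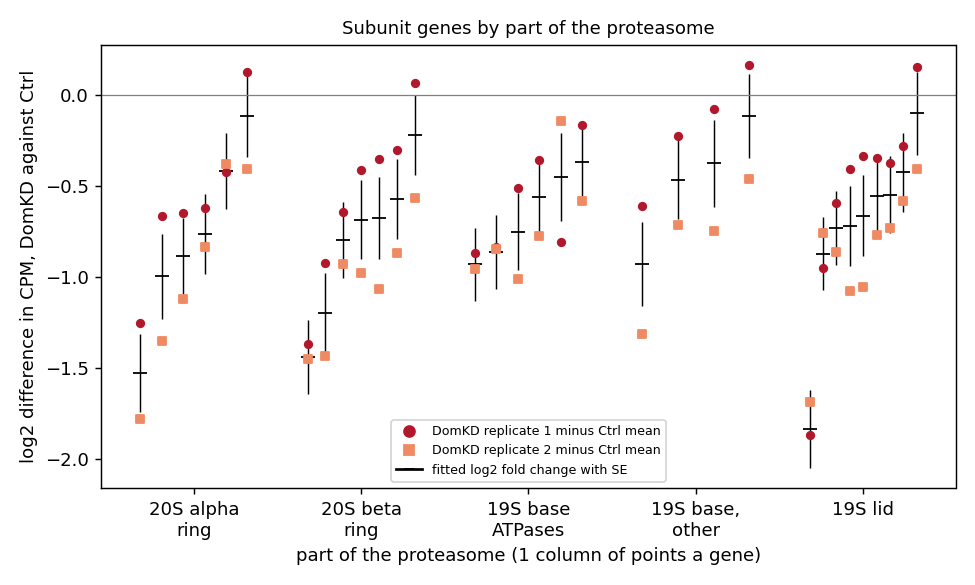
Log2 difference from the mean of the 2 Ctrl libraries for DomKD replicate 1 (circles) and DomKD replicate 2 (squares), and the fitted log2 fold change with its SE (black), at the 32 subunit genes grouped by their place in the proteasome. In all 5 groups most points lie below 0, and DomKD replicate 1 lies above 0 at 4 genes.

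Some subunit genes share reads with a neighbour, because counting took no account of strand and let a read count for each transcript it touched. Of the 16 that overlap no other gene, 10 were lower (median -0.70), and of the 16 that overlap another, 9 were (median -0.63). The longest overlaps were those of Rpn8 with Slik (2653 nt), Rpt1 with CG17985 (1515 nt) and Rpt6 with CG1801 (1471 nt). Of these neighbours, Slik was lower, and CG17985 and CG1801 did not pass. A start of another gene on the opposite strand lay within 500 nt upstream of 18 of the 33 subunit genes (54.5%) and of 2 of the 16 paralogs (12.5%), against 24.1% of all genes. Of the 17 such pairs with a tested subunit gene, the neighbour was lower in 8 (median log2 fold change -0.50). Of all genes tested 12.7% were lower, and of occupied genes 30.6%. The neighbour was lower in 7 of the 12 pairs whose subunit gene was lower, and in 1 of the 5 whose subunit gene did not pass. Fragments near a shared promoter cannot be assigned to one gene by these counts.

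Subunit genes with and without each motif were then set side by side. Of the 12 subunit genes with a DRE, 6 were lower (median -0.62), and of the 20 tested without one, 13 were (median -0.78). Among occupied genes at large, 35.8% of those with a DRE and 29.8% of those without one were lower, with medians of -0.46 and -0.38. Of the 6 subunit genes with an ARE, 4 were lower (median -1.08), namely Sem1, Prosbeta3, Prosalpha2 and Rpn7, and of the 26 without one 15 were lower (median -0.67). The share lower among occupied genes with an ARE was not computed. The AREs of Prosalpha2, Rpn7 and Rpt6 lie 38, 37 and 27 bases after the start. The DREs of Rpn7 and Rpn9 lie 4 and 27 bases after it. These counts are small, and no difference between the groups was tested.

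The testis paralogs carried little Pol II in these embryos. Their median level was 1.18 and 1.04 times background in DomKD, against 1.17 and 1.12 times in Ctrl, so all 4 libraries were close to background. Only 2 of the 16 were occupied, against 5961 of the 16513 genes tested. Prosalpha6T (chromosome 2L, 13232039 to 13233058), the paralog of Prosalpha6, had 3.89 and 2.00 times background in DomKD, against 4.11 and 4.93 in Ctrl. Rpt3R (3R, 9754735 to 9756510), the paralog of the ATPase gene Rpt3, had 2.22 and 1.57 times background in DomKD, against 3.20 and 3.47 in Ctrl. The span of Rpt3R (1776 nt) overlaps Alg12 by only 20 nt, where reads can be shared, whereas Prosalpha6T overlaps no other gene. The lowest were Rpn13R, with 0.801 and 0.664 times background in DomKD, against 0.823 and 0.313 in Ctrl, and Prosbeta4R2, with 0.969 and 0.890 in DomKD, against 0.608 and 0.798 in Ctrl. At these levels a density cannot be told from background.

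Unlike Prosalpha1R, the other paralogs differ from their subunit gene in sequence. The proteins encoded by these 15 were between 35.4% (Rpn13R) and 88.9% (Rpt6R) identical to their subunit over the aligned residues, and the longest run of bases shared with it was 10 to 26 nt. At 13 of these 15 pairs the density of the paralog was below that of its subunit gene in all 4 libraries, and the ratio of mean densities ran from 0.178 at Prosbeta2R1 to 0.985 at Rpt3R, with a median of 0.269. The exceptions were Rpt3R, whose ratio to Rpt3 was 1.21 and 1.13 in DomKD, against 0.961 and 0.824 in Ctrl, and Prosalpha4T1, whose ratio to Prosalpha4 was 0.868 and 1.28 in DomKD, against 0.397 and 0.482 in Ctrl. Both have subunit genes of low density. The whole span of Prosalpha4T1 (891 nt) lies within CG42322 on the other strand, so its reads can be shared.

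**Figure D4:**
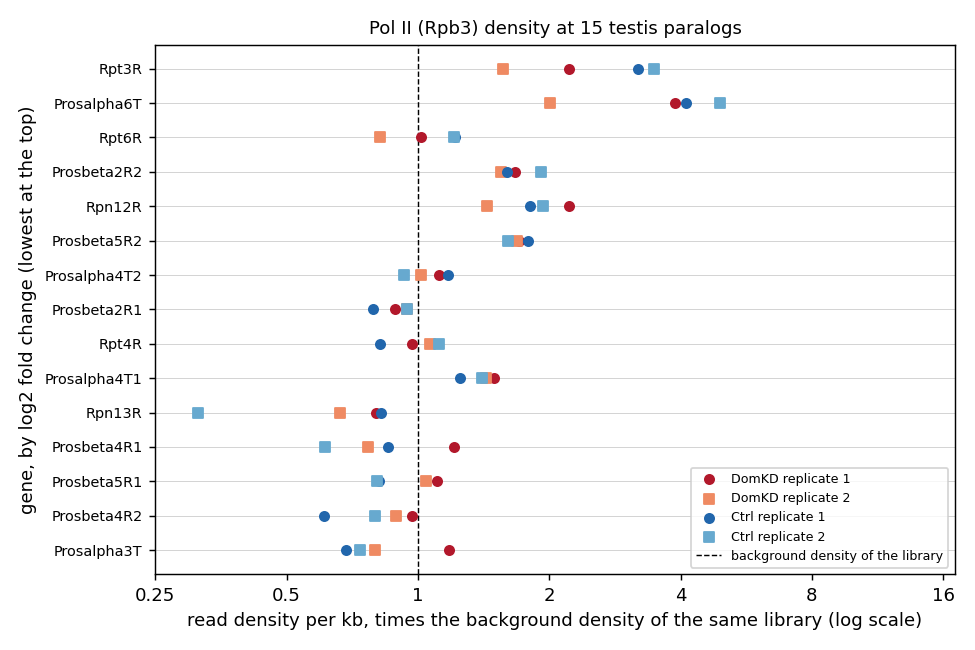
Read density of Rpb3 at the 15 testis paralogs with reads, in times the background density of the same library (log scale), with 1 point for each of the 4 libraries. Most points lie around the dashed line at background, and only Prosalpha6T and Rpt3R have a mean of at least 2 times background.

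Between DomKD and Ctrl, 1 of the 15 paralogs passed the test. It was Prosbeta4R2 (2L, 2655394 to 2657102), a beta ring paralog, with 8.16 and 9.84 CPM in DomKD, against 4.73 and 5.73 CPM in Ctrl, or 76 and 99 reads in DomKD against 58 and 48 in Ctrl. Both DomKD libraries were above both Ctrl libraries (log2 fold change 0.80 ± 0.28, SE, adjusted p = 0.0375). Of all genes, 2.46% were higher, and of genes that are not occupied 3.32% were, so 1 of 15 is near the background. Prosbeta4R2 lost its call in 8 of the 13 alternatives that gave it a value, among them library size scaling and the quasi-likelihood test. The transcript counted overlaps Or23a by 69 nt, and over the shortest transcript the log2 fold change was -0.15.

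The other 14 did not pass, and 5 of the 15 had an unadjusted p under 0.05, 4 of them above 0 and 1 below, where 31.0% of all genes and 20.7% of genes that are not occupied had one. Of the 15, 12 had a log2 fold change above 0, where 73.5% of genes that are not occupied did, so the count is near the background. The median was 0.48 and the range -0.47 to 0.81, against a median of 0.26 for genes that are not occupied. Both DomKD libraries were above both Ctrl libraries at 12 of the 15, against 30.8% of all genes and 43.8% of genes that are not occupied. In units of each library's own background, the medians given above lay between 1.04 and 1.18 in all 4 libraries. The background density was higher in DomKD replicate 2 than in the other libraries, and its part in these CPM differences was not tested. Neither occupied paralog passed. Rpt3R had 19.4 and 18.0 CPM in DomKD, against 25.8 and 25.9 in Ctrl (-0.47, adjusted p = 0.0872), and Prosalpha6T had 19.5 and 13.2 CPM in DomKD, against 19.1 and 21.1 in Ctrl (-0.29, adjusted p = 0.337). When occupied genes alone were fitted, Rpt3R was at -0.10 and Prosalpha6T at 0.05. Without DomKD replicate 1, Rpt3R (-0.53, adjusted p = 0.00448) and Prosalpha6T (-0.60, adjusted p = 0.00433) were lower, and without DomKD replicate 2 Rpt3R was (-0.42, adjusted p = 0.0398). Rpn13R, which lies within the gene rg, had 4.29 and 4.67 CPM in DomKD, against 4.07 and 1.43 in Ctrl (0.65, adjusted p = 0.246).

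Other genes of the pathway were read beside the subunits. Of 10 regulators and assembly factors, of which 6 were occupied, 4 were lower and 0 higher (median -0.52), where 12.7% of all genes and 30.6% of occupied genes were lower. PI31, a regulator that binds the core, had 27.4 and 21.9 CPM in DomKD, against 40.8 and 44.6 in Ctrl (-0.79, adjusted p = 0.00249). Usp14, a deubiquitinase of the cap, was at -0.72, REG, the homolog of the mammalian PA28 gamma activator, at -0.65, and rngo, a ubiquitin receptor of the Ddi1 family, at -0.56, with adjusted p of 0.0162, 0.0292 and 0.0423. Both DomKD libraries were below both Ctrl libraries at all 4, as at 31.8% of all genes and 62.1% of occupied genes. The same libraries gave the 4 calls, so this order adds no support to them. Of the alternatives described below, DESeq2 passed only PI31 of the 4. Only rngo failed to pass with the quasi-likelihood test and with the replicate block. The span of rngo overlaps eIF2alpha, and that of PI31 overlaps exp. The assembly chaperone gene Pomp was at -0.06. The gene with the most reads on this list was cnc, whose mammalian homologs activate subunit genes, with 363 and 333 CPM in DomKD, against 273 and 276 in Ctrl (0.34, adjusted p = 0.281). Its span is 40300 nt, its mean density was 1.52 times background, which is not occupied, and it overlaps fzo.

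Of 13 genes of ubiquitin and delivery to the proteasome, 4 were lower and 0 higher (median -0.33). Of these 13 genes 11 were occupied, and their share is near the 30.6% of occupied genes that were lower. The 4 were p47 (-0.76, adjusted p = 0.00308) and Faf2 (-0.66, adjusted p = 0.0172), cofactors of the unfoldase TER94, the polyubiquitin gene Ubi-p63E (-0.68, adjusted p = 0.00894) and the shuttle factor gene Ubqn (-0.63, adjusted p = 0.0445). Ubi-p63E had 27.5 and 26.8 CPM in DomKD, against 42.9 and 44.3 in Ctrl. Ubqn did not pass with the quasi-likelihood test, DESeq2 or the replicate block, and Faf2 did not pass with DESeq2. The gene with the most reads was Uba1, the ubiquitin-activating enzyme, with 198 and 147 CPM in DomKD, against 182 and 204 in Ctrl (-0.16, adjusted p = 0.631). Other large complexes were counted in the same fit: 25 of 92 cytoplasmic ribosomal protein genes were lower (median -0.34), and 37 of 73 mitochondrial ribosomal protein genes were (median -0.63).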

How the data were processed

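Raw read counts per annotated transcript were deposited by the authors, who trimmed the reads, mapped them to dm6, took out duplicates and pairs that were not properly mapped, and counted reads over whole transcript spans (introns included) with featureCounts against an Ensembl annotation, without regard to strand and for every transcript overlapped. No input was subtracted, and 24 of the 28 samples were not used here. Of 34793 transcripts, 34516 matched the BDGP6 annotation by identifier. The transcript with the highest mean count stood for each gene. Spans under 125 nt, or with 10 reads or fewer over the 4 libraries, were left out, and the rest were tested with edgeR 4.0.16 (R 4.3.3), likelihood ratio test, TMM factors (0.894 and 1.09 in DomKD, 1.02 and 1.01 in Ctrl) and no replicate block. The study scaled on its own list of Zelda targets, which was not used here. Density used CPM without TMM factors, and the background was the mode of log2 density (kernel bandwidth 0.1) over spans longer than 2000 nt.

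Groups came from the sample titles. Counts limit precision: the lowest member counts were 12 to 50 reads (Rpn13R). SE values are from the fit, and SD values are over 2 libraries. The study calls the replicates biological, but p-values measure only the spread between these libraries. Neither pair agreed within sampling noise (chi-square per degree of freedom 27.3 for DomKD and 2.22 for Ctrl). Members, gene lists and tests were chosen with earlier results of these data known. Per-library values were given for members that passed, for the 3 highest and 3 lowest subunit genes by density, for occupied paralogs and the 2 lowest paralogs, and for a few others singled out after their values were seen. All per-sample columns were used. Scripts were tested on simulated counts. Alternatives covered the scaling, the test (quasi-likelihood, DESeq2 1.42.0), filters, the transcript chosen, overlapping genes, thresholds, a replicate block and leaving out each library. Protein identity was computed from the annotated coding sequences (Biopython 1.88).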

Additional observations from a re-analysis of the deposited data

How the results depend on the processing

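Among subunit genes, the number lower in DomKD stayed within 1.5 times of 19 under the scaling, test, filter and transcript alternatives and the replicate block (18 lower). It was 11 of 16 when genes that overlap another were left out, and 10 of the 16 kept were lower in the main fit. It was 4 with an added minimum of 1 for the absolute log2 fold change. Leaving out 1 library at a time gave 4 to 31, the lowest without Ctrl replicate 2 and the highest without DomKD replicate 1. With 1 Ctrl library the spread came from the DomKD pair alone, and with 1 DomKD library from the Ctrl pair alone, so the lone library was assumed to vary like the other group. The median ranged from -0.88 to -0.43 over the fits without 1 library, and was -0.33 when occupied genes alone were fitted and -0.99 with TMM factors from the early zygotic list. DESeq2 kept 13 of the 19 calls and gave 13 lower.

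Among the paralogs, 1 was higher, against 0 under library size scaling, TMM factors from the early zygotic list, the quasi-likelihood test, the replicate block, the shortest transcript and both stricter thresholds. The 0 among genes without overlap and among occupied genes only is no test of that call, since Prosbeta4R2 is in neither set, nor is the 0 with DESeq2, which gave it no adjusted p. Leaving out 1 library gave 0 to 5 higher, and 2 lower without DomKD replicate 1 and 1 lower without DomKD replicate 2, with medians from 0.22 (without DomKD replicate 2) to 0.58, against 0.48 with all. The median of the 2 occupied paralogs, fitted among occupied genes alone, was -0.023, with 1 of the 2 below 0. Prosbeta4R2 was at -0.15 over its shortest transcript, against 0.80, and the cause was not tested.

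Over all genes, 2497 passed, against 1155 with DESeq2, 1143 among the 8173 genes without overlap, 1215 at an adjusted p under 0.01 and 449 with the minimum of 1. Leaving out 1 library gave 136 to 8816. At 4 times background, 20 subunit genes and 0 paralogs were occupied, against 31 and 2. Same-numbered libraries did not deviate together (correlation -0.14 over genes). The sample titles give only a replicate number. Because DomKD replicate 2 stood apart, this correlation cannot show whether same-numbered libraries shared a batch. The replicate block gave 1858 calls. Crossed pairing, added after seeing the data, gave 3412 calls over all genes, 22 subunit genes lower and 2 paralogs higher. Depth limits the paralogs, which had 12 to 317 reads in a library.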
